A study of Homo sapiens with 9 samples.

Results

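EGR1 peaks that lie close together were examined in human fibroblasts in which the B-RAF V600E oncoprotein had been switched on. In the authors' list of sites where induced cells exceeded proliferating cells, the summits (the base of highest signal in each peak) on chromosomes 1 to 22 were sorted, and neighbours no more than 10 kb apart were joined into a chain. Chains of 3 or more peaks held 2096 of the 15750 autosomal peaks (13.3%), out of 16285 peaks in the whole list. These 2096 peaks fell into 570 chains. The values that chose them, the positions and the listing of induced peaks, are described here with no test.

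The chromatin came from BJ-hTert-B-RAF-V600E cells, a line of telomerase-immortalised human foreskin fibroblasts with an inducible oncogene, and was precipitated with an antibody to EGR1 (sc-189X). There were 3 groups of 3 libraries, all taken at 24 h. Proliferating cells had ethanol, induced cells had 1000 ng/mL doxycycline, and the last group had the same doxycycline together with 2 nM clobetasol. The treatment label of the first and second groups is DMSO, and the titles name DMSO for every group. All libraries are of 1 cell line, and whether the libraries of a group stem from separate cultures is not stated. Proliferating replicates 2 and 3 are listed under 1 shared name among the library names, and it is unsettled whether they are distinct. The authors pooled the 3 libraries of a group before calling peaks, so each value below rests on 1 pool a group and has no replicate spread.

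EGR1 is a zinc finger transcription factor that binds GC-rich DNA, and its own gene is an immediate early gene switched on by the RAF, MEK and ERK kinases. B-RAF V600E keeps that kinase cascade active, and in normal fibroblasts its sustained activity leads to senescence, a lasting arrest of proliferation. Clobetasol is a potent glucocorticoid, an agonist of the glucocorticoid receptor, and the series compares EGR1 binding in induced cells with and without it. Peaks are named by position in hg19, counted from 1. No hg19 annotation or sequence was used here, so the genes at the chains and the bases under the peaks are not given.

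Most chains were short. There were 371 chains of 3 peaks, 116 of 4, 38 of 5, 23 of 6, 12 of 7 and 10 of 8 or more. A further 3402 peaks stood in pairs and 10252 had no neighbour within 10 kb. The median chain spanned 9.51 kb from the first base of its first peak to the last base of its last (interquartile range 6.00 to 13.5 kb). The shortest covered 1.65 kb and the longest 58.6 kb. Of the 1526 steps between neighbouring summits inside chains, 247 were under 1 kb, 345 between 1 and 2 kb, 439 between 2 and 5 kb, and 495 between 5 and 10 kb. The median step was 3000.5 bp.

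Peaks just inside and just outside the 10 kb bound had near medians. Those on either side of the 174 steps of 9 to 10 kb, just inside the bound, had a median fold of 3.65 over proliferating cells and 64 fragments at the summit. Just outside it, the 179 steps of 10 to 11 kb joined nothing, and their peaks had a median fold of 3.71 and 61 fragments.

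Peaks in chains were unevenly spread over the chromosomes. Chromosome 19 held 304 of them in 80 chains, which was 28.6% of all induced peaks on that chromosome and 14.5% of all chained peaks. Chromosomes 16 and 17 followed, with 23.6% and 20.4% of their peaks in chains (51 chains each). On chromosome 14 the share was 4.79%, with 23 peaks in 7 chains, and on chromosome 13 it was 6.89%, with 21 peaks in 6 chains. A chromosome with more peaks per length has closer neighbours, and chromosome length was not used here.

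**Figure D1:**
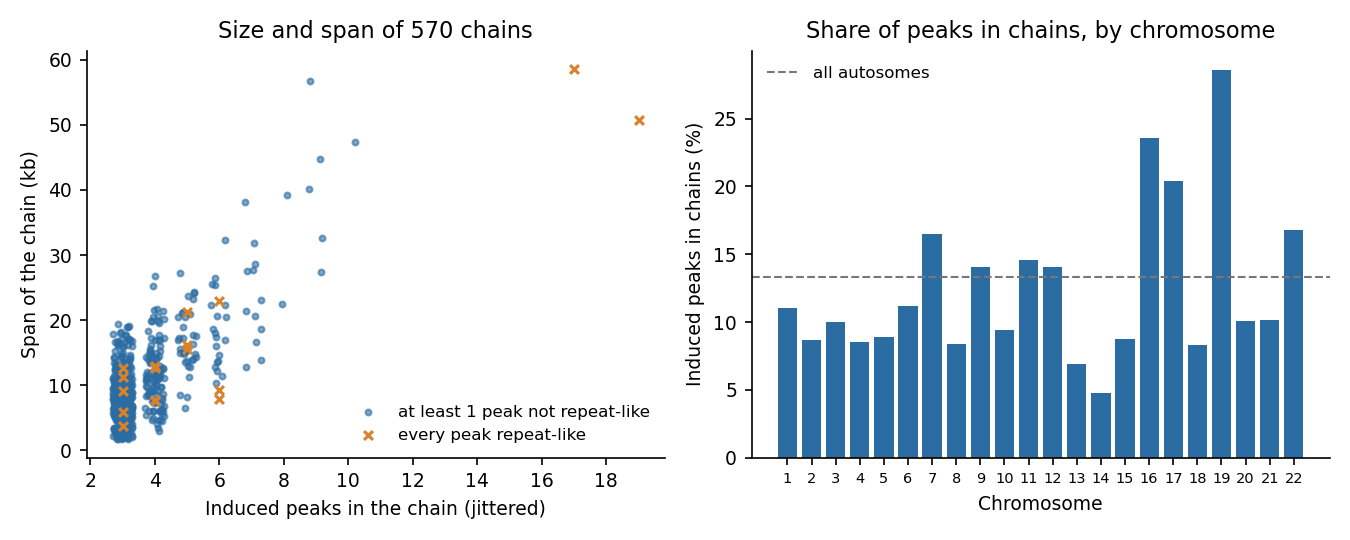
Left, the number of induced peaks in each of 570 chains (horizontal, jittered) against the chain's span in kb. Crosses mark the 17 chains in which every peak had a high control level (repeat-like). Right, the percentage of each chromosome's induced peaks that fell in chains, with a dashed line at the share over all autosomes, 13.3%. Chromosome 19 is highest, at 28.6%.

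The fragments under each summit, up to a limit of 20000, could be recovered from the deposited fold and −log10 p. Together these fix the whole number of treated fragments and the local level in the proliferating control. Chained peaks had a median of 69 fragments at the summit (interquartile range 48 to 118), a median fold of 3.59 (3.04 to 4.41) and a median width of 444 bp. Isolated peaks had 64 fragments (43 to 103), a fold of 3.65 (3.15 to 4.36) and a width of 418 bp. The middle ranges of chained and isolated peaks overlapped in both measures, and that of fragments reached higher in chains.

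A peak is called repeat-like here when its control level exceeded 5 times the lowest level in the list. The label rests on no annotation of repeats and shows only strong signal in proliferating cells. Repeat-like peaks made up 21.6% of chained peaks (452 of 2096) and 16.8% of isolated peaks (1719 of 10252). In chains of 8 or more the share was 48.6%, 52 of 107 peaks. At least 1 such peak was present in 285 of the 570 chains, and 17 chains held no other kind.

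A pair of chains far exceeded the others in size, and every peak of both was repeat-like. The chain at chr10:42356184-42407012 held 19 peaks within 50.8 kb. Its summits had 339 to 18142 fragments in the induced pool, and its folds lay between 1.09 and 1.90. At the strongest of these peaks, chr10:42385030-42385568, the proliferating control level corresponded to 28935.7 fragments against 18142 induced fragments, before the control was scaled down to the induced depth. The chain at chr4:49093451-49152021 held 17 peaks within 58.6 kb, with folds of 1.26 to 1.69 and 297 to 3216 fragments. The induced excess in both was thus under 2 fold on a very high base. In all, 13 chains (84 peaks) had only repeat-like peaks with every fold under 2.

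The comparison with clobetasol asked how many peaks of a chain were also listed when the glucocorticoid was present. A chained peak was counted as shared when a peak of the clobetasol list overlapped it by at least 1 bp. This applied to 1359 of 2096 peaks, 64.8% (95% Wilson interval 62.8 to 66.9), beside 64.1% of all autosomal induced peaks. Isolated peaks gave 64.2% (63.2 to 65.1) and pairs 63.5% (61.8 to 65.1). The share in chains was near the background, and these intervals cover counting error only. Both lists were called against the same proliferating pool. A peak without overlap is known only to have no counterpart in the deposited clobetasol list, whose lowest −log10 q was 5.00 as in the induced list.

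Most chains held both shared peaks and peaks that were not shared. The share was 64.8% of chained peaks, beside 64.1% of all autosomal induced peaks. At such a share mixed chains are frequent by number alone, the more so in longer chains. Whether sharing was arranged by chain was not tested. Every peak was shared in 129 chains (22.6%), some were in 416 (73.0%) and none were in 25 (4.39%). Of the 25 chains with none, 24 held no repeat-like peak, and 21 were chains of 3. Among the 83 chains of 5 or more peaks, 6 were shared in full, 77 in part, and all had at least 1 shared peak. Counted the other way, the clobetasol list placed 3 or more peaks inside 247 of the chain spans, 2 inside 207, 1 inside 91 and none inside 25. Peaks found only with clobetasol were rare there. They numbered 22, in 21 chains, with a median clobetasol fold of 2.80 and a median of 50.5 fragments.

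By the same joining rule the clobetasol list itself had 306 chains with 1087 of its 11926 autosomal peaks (9.11%), against 13.3% of the induced list. Of those 306 chains, 239 overlapped a chain of the induced list. The clobetasol list has fewer peaks, and fewer peaks alone give fewer close neighbours.

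The strongest peak of a chain was the one most often shared. By fragments at the summit, 501 of the 570 strongest peaks had a clobetasol peak, 87.9% (Wilson interval 85.0 to 90.3). The second peak was shared in 72.8% of chains, the third in 46.7% and the fourth or lower in 45.9%. For the weakest peak of each chain the share was 37.7% (33.8 to 41.8), 215 of 570. Ranks follow strength, since the median −log10 q fell from 35.3 at the strongest peak to 8.24 at the weakest. Place along the chain made little difference: 64.4% of the outermost peaks and 65.4% of those between them were shared.

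At matched strength, chained and isolated peaks were shared about equally often. With an induced −log10 q between 5 and 10, 26.1% of 614 chained peaks (Wilson interval 22.7 to 29.7) and 28.9% of 3317 isolated peaks (27.4 to 30.5) had a clobetasol peak. Between 10 and 20 the shares were 62.2% (58.3 to 65.9) and 64.6% (62.9 to 66.2). Between 20 and 40 they were 91.7% and 91.6%, and at 40 or more 98.8% and 99.5%. The intervals of chained and isolated peaks overlapped in each of these 4 classes.

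**Figure D2:**
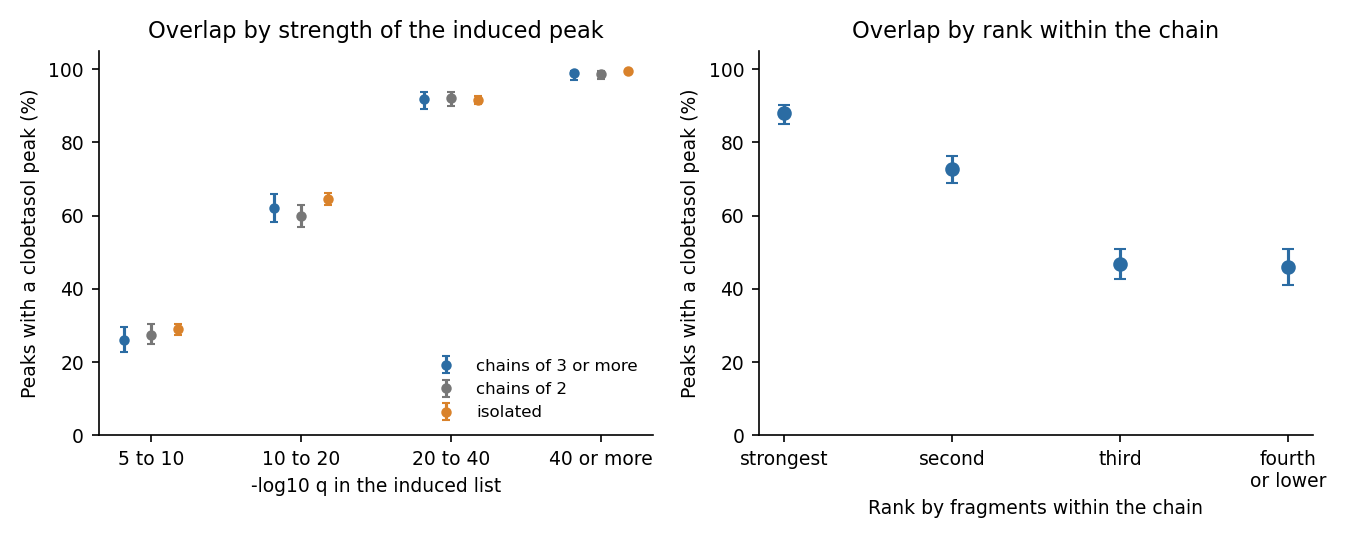
Percentage of induced peaks overlapped by a clobetasol peak, with 95% Wilson intervals for counting error. Left, by the −log10 q of the induced peak, for chains of 3 or more, chains of 2 and isolated peaks. The points rise from 26.1% to 98.8% in the chains of 3 or more. At 10 to 20 the intervals of chains of 2 (59.9%, 56.9 to 62.8) and isolated peaks (64.6%, 62.9 to 66.2) are apart. Right, by rank within the chain, falling from 87.9% at the strongest peak to 45.9% at the fourth or lower.

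Repeat-like peaks moved with the overlap. Among chained peaks, 407 of 452 repeat-like peaks were shared (90.0%), against 952 of 1644 others (57.9%). Isolated peaks showed like values, 91.6% and 58.7%. Without the chains that contained any repeat-like peak, 56.4% of peaks were shared (Wilson interval 53.3 to 59.5). In the 13 chains of repeat-like peaks with every fold under 2, 66 of 84 peaks were shared (78.6%), and outside them 64.3% were. These shares are not matched for strength. Within chains, at a −log10 q of 5 to 10, 44.4% of 27 repeat-like peaks (27.6 to 62.7) and 25.2% of 587 others (21.9 to 28.9) were shared. From 10 to 20 the shares were 70.8% and 61.2%, from 20 to 40 they were 94.4% and 90.7%, and at 40 or more 98.6% and 99.2%. The intervals of repeat-like and other chained peaks overlapped in each of the 4 classes. Isolated peaks, which are more numerous, had intervals apart below a −log10 q of 20 and overlapping above it. At 5 to 10, 50.6% of repeat-like (39.7 to 61.5) and 28.4% of other isolated peaks (26.9 to 30.0) were shared. At 10 to 20 the shares were 78.5% (72.9 to 83.2) and 63.4% (61.6 to 65.1).

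How often neighbouring peaks were shared together varied with their distance, in no single direction. For summits under 1 kb apart inside chains, both peaks were shared in 88 of 247 steps (35.6%), 1 in 127 (51.4%) and neither in 32 (13.0%). For steps of 1 to 2 kb the shares were 49.0%, 42.3% and 8.70%, for steps of 2 to 5 kb they were 44.6%, 43.5% and 11.8%, and for steps of 5 to 10 kb they were 40.2%, 43.6% and 16.2%. Neighbouring peaks 50 kb or more apart, which no chain joins, gave 42.0%, 44.8% and 13.3% over 8090 steps. A peak inside a chain enters a pair of steps, so the steps are not independent.

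Fragments at most shared peaks were lower with clobetasol after the depth of the pools was allowed for, which is a description only. The induced pool chose these peaks and is also the denominator of the ratio. A clobetasol effect therefore cannot be read from values below 1. The clobetasol pool was 1.21 times as deep as the induced pool, as read from the steps of the control levels. Dividing clobetasol fragments by this depth ratio and by induced fragments gave a ratio below 1 at 89.8% of the 1359 shared chained peaks, beside 87.8% of all shared autosomal peaks and 86.8% of isolated ones. The median ratio was 0.805 (interquartile range 0.713 to 0.909). The 95% interval of the ratio (exact binomial, counting error only) lay below 1 at 490 peaks, 36.1%, beside 36.0% of all shared autosomal peaks. It lay above 1 at 6 peaks, 0.442%, beside 0.545%. Isolated peaks had a median ratio of 0.798. Chained peaks thus had nearly the same median and the same share below 1 as the background.

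The median ratio by strength class is a description only, because induced fragments set both the class and the denominator of the ratio. In chains it was 0.955 at shared peaks with a −log10 q of 5 to 10, 0.823 at 10 to 20, 0.770 at 20 to 40 and 0.752 at 40 or more. In the weakest class only the 160 of 614 peaks that had a clobetasol peak entered it, so peaks with fewer clobetasol fragments were left out of that median. Isolated peaks gave 0.965, 0.835, 0.757 and 0.738 in the same classes. The strongest peaks of the chains had a median ratio of 0.778 and the weakest 0.862.

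In most chains with 2 or more shared peaks, the intervals of the lowest and the highest ratio overlapped. With few fragments at a peak, such overlap does not show that the ratios were equal. In 445 chains with 2 or more shared peaks, all ratios were below 1 in 342 (76.9%) and all were above 1 in 3. The highest ratio of a chain was 1.27 times its lowest at the median. The intervals of the extremes were apart in 16 of these chains, and in 15 of these they stayed apart when summits of the 2 lists had to lie within 100 bp. Each such chain compares its own extremes, and longer chains have wider extremes by their number of peaks alone. Summits of the 2 lists lay a median of 10 bp apart, and 95.7% within 100 bp.

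Single chains show the range of these patterns. They are those with most peaks, most fragments, closest spacing, no shared peak or all peaks shared among chains without a repeat-like peak, 5 of each, with some chains named by more than 1 of these rules. A further chain below was named for its number of peaks at any control level. The others were singled out after their values were seen, and this is said where they appear.

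The chain of most peaks was chr11:61347739-61386983, with 8 peaks over 39.2 kb. Along the chromosome the summits held 35, 168, 35, 73, 59, 42, 46 and 27 fragments in the induced pool. The second peak, chr11:61355932-61356506, stood out from the others, with a fold of 7.16. Its control level was 41 proliferating fragments before scaling down to the induced depth. With clobetasol it had 145 fragments, a ratio of 0.710 (interval 0.565 to 0.893). The other 4 shared peaks had 40, 86, 81 and 62 clobetasol fragments and ratios of 0.941, 0.970, 1.13 and 1.11, and the interval of each included 1. The first, sixth and eighth peaks, with 35, 42 and 27 induced fragments, had no clobetasol peak. The lost peaks were thus among the weak ones, but the third, also of 35 fragments, was shared.

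Just upstream of it lay chr11:61319026-61325080, a separate chain of 4 peaks within 6.06 kb and one of the 5 with the closest spacing. Its summits held 79, 52, 53 and 34 induced fragments, and 74, 43 and 35 clobetasol fragments at the first 3. The ratios were 0.771, 0.681 and 0.544, and the interval of the third, 0.344 to 0.849, lay below 1. The last and weakest peak was not listed with clobetasol.

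A chain of 7 peaks at chr15:74684691-74716596 covered 31.9 kb. Induced fragments were 79, 165, 75, 72, 42, 42 and 73 in order along the chromosome. The highest, chr15:74688129-74689671, had a fold of 7.96 and a width of 1543 bp. Clobetasol fragments at the 5 shared peaks were 70, 170, 57, 69 and 59, and all of their ratios lay between 0.626 and 0.848. The peaks of 42 fragments each, the fifth and sixth, had no clobetasol peak, although their folds were 4.14 and 3.93.

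On the same chromosome, chr15:90333694-90361389 also held 7 peaks. A single summit, chr15:90355006-90358463, had 194 fragments, and the other six had 34 to 62. That peak spanned 3458 bp, and its 124 clobetasol fragments gave a ratio of 0.526 (0.417 to 0.663). Of the others 3 were shared and 3 were not, with induced fragments of 40, 39 and 62 in the first set and 36, 34 and 35 in the second. The 4 ratios of the chain lay between 0.526 and 0.761.

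The chain at chr17:77770791-77787436 had 7 peaks in 16.6 kb with 146, 61, 63, 44, 83, 48 and 42 induced fragments. Its first peak was the strongest, with a fold of 5.82, 118 clobetasol fragments and a ratio of 0.665 (0.517 to 0.854). The fourth and sixth, of 44 and 48 fragments, lacked a clobetasol peak, whereas the last, of 42, had 50 clobetasol fragments and a ratio of 0.980. At chr3:50638577-50676745, 7 peaks over 38.2 kb held only 39 to 93 induced fragments, and 5 were shared with ratios of 0.764 to 1.09. No interval in that chain excluded 1.

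Among chains of high total signal, chr2:238340184-238350831 held 584 induced fragments in 4 peaks, all shared. The induced summits had 59, 140, 301 and 84 fragments, and with clobetasol they had 86, 108, 259 and 73. The third, chr2:238343428-238344007, had a fold of 9.15 and a ratio of 0.708. The ratio of the first, 1.2 (0.852 to 1.70), lay apart from that of the second, 0.635 (0.489 to 0.822). A chain of 6 peaks at chr16:118250-135246 had low ratios throughout. Its 4 shared peaks held 85, 151, 102 and 69 induced and 62, 122, 68 and 51 clobetasol fragments. Their ratios were 0.6, 0.665, 0.549 and 0.608, with every interval below 1, and the first and second peaks of the chain, of 33 fragments each, were not shared. The summits of the 2 lists lay 193 bp apart at the last peak of that chain.

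Other chains kept all of their peaks. At chr7:2671166-2674016, 3 peaks within 2.85 kb had folds of 7.01, 8.10 and 9.27, with 95, 159 and 177 induced fragments. Clobetasol fragments there were 65, 129 and 159, and the ratios 0.563, 0.668 and 0.739 all had intervals below 1. At chr18:3448090-3451155, 189, 164 and 58 induced fragments stood against 143, 172 and 52 with clobetasol. Only the first ratio of that chain, 0.623 (0.498 to 0.778), had an interval below 1. The chain at chr12:111835060-111851937 had 139, 83, 112 and 56 induced and 115, 61, 125 and 43 clobetasol fragments, and the ratio of the third, 0.919, was the only one whose interval included 1. At chr16:67274861-67283278 the 4 ratios ran from 0.737 to 0.975, and each interval included 1. The summits of the first and last peaks there lay 290 and 433 bp from those of their clobetasol partners, so the ratios at these peaks do not describe 1 position.

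**Figure D3:**
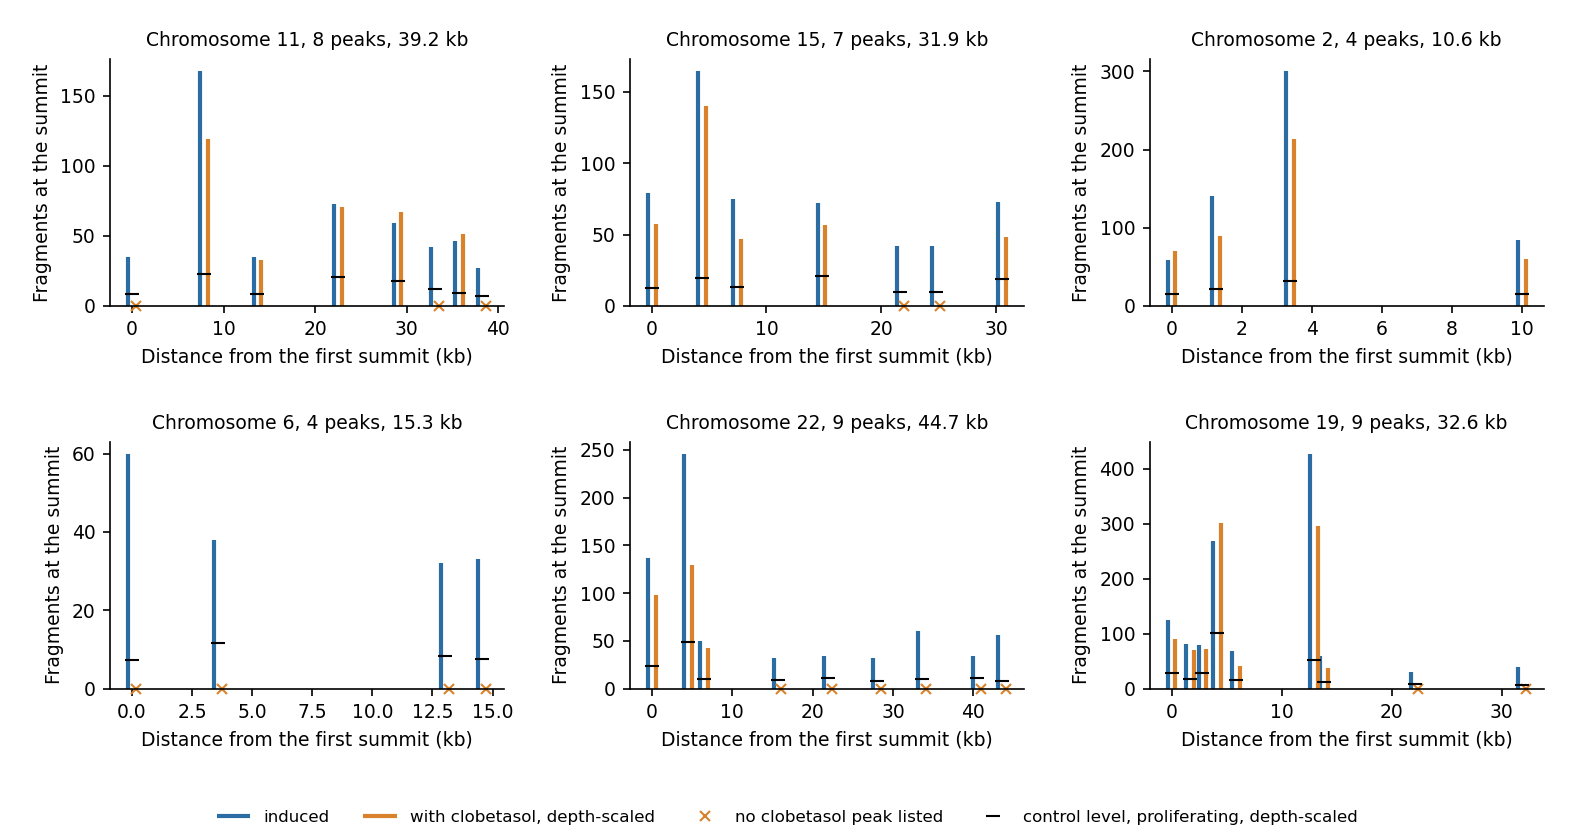
Fragments at the summit of each peak of 6 chains, against distance from the chain's first summit in kb. Blue bars are the induced pool, orange bars the clobetasol pool divided by the depth ratio, crosses peaks with no clobetasol peak listed, and black dashes the proliferating control level on the induced scale. The chain on chromosome 6 has a cross at each of its 4 peaks, and the chain on chromosome 22 at 6 of its 9.

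The closest spacing among chains of 4 or more peaks was at chr21:36258953-36263553, whose 4 summits lay a mean of 976 bp apart. Induced fragments were 69, 86, 156 and 85. The first peak was not shared, and the others had 87, 135 and 67 clobetasol fragments and ratios of 0.833, 0.712 and 0.649. At chr7:92461487-92466162, 4 peaks in 4.68 kb held 63, 82, 92 and 102 induced fragments. Its second peak was lost while both neighbours were listed. The first and last had more fragments with clobetasol, 96 and 143, with ratios of 1.25 (0.903 to 1.75) and 1.15 (0.889 to 1.5), and the third had 76 and a ratio of 0.680 (0.495 to 0.932).

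Closely spaced chains could also be shared only in part. At chr11:118796692-118801216, 4 peaks with 57, 34, 44 and 63 induced fragments and folds of 2.78 to 3.11 lay in 4.53 kb, and only the first had a clobetasol peak. The last had the most fragments, but the first had the highest fold, 3.11, and the highest −log10 q, 10.4. The lost peaks had a −log10 q of 5.21, 7.05 and 9.36, in a class of which 26.1% of chained peaks were shared. At chr19:41829584-41834242, both inner peaks of the 4 were shared, with 81 and 143 induced and 58 and 110 clobetasol fragments. Both of those ratios, 0.589 and 0.633, had intervals below 1, and the outer peaks of 55 and 52 fragments were lost.

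**Figure D4:**
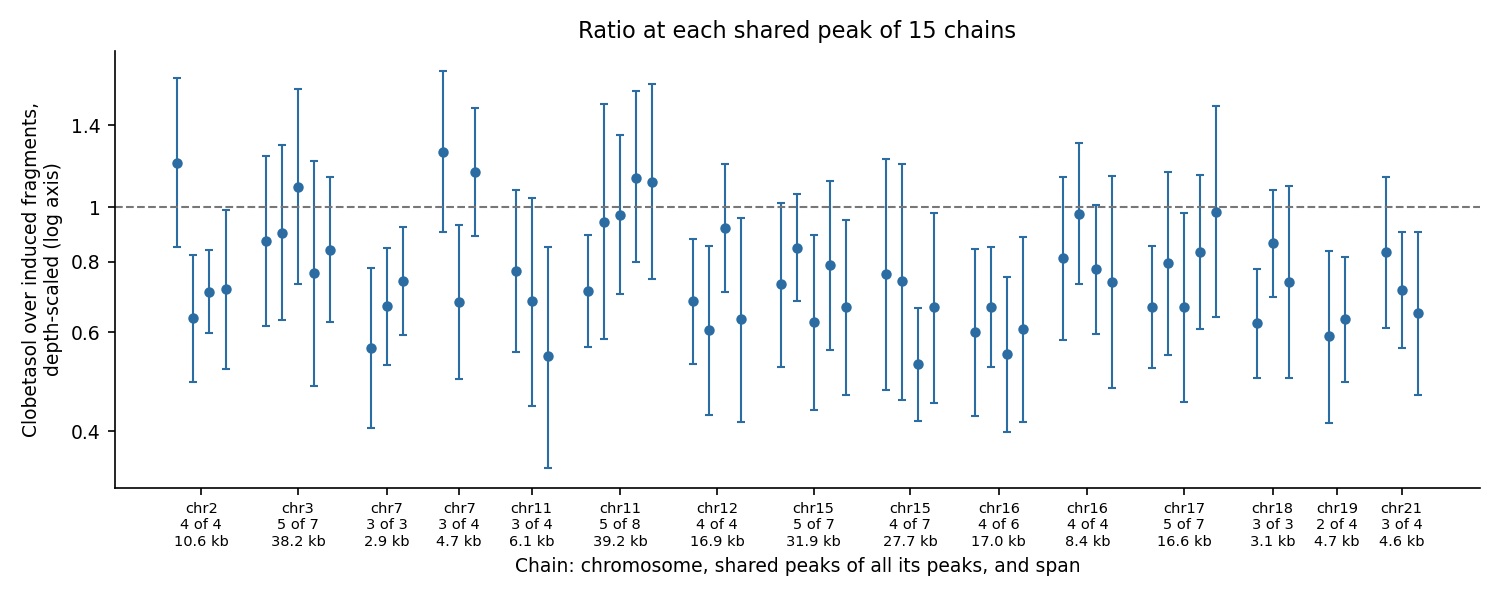
Depth-scaled ratio of clobetasol to induced fragments at each shared peak of 15 chains (log axis), with exact binomial 95% intervals for counting error. Labels give the chromosome, how many of the chain's peaks are shared, and the span; peaks follow their order along the chromosome. The dashed line marks equal occupancy at 1, and the intervals of most peaks within a chain overlap.

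Among chains with neither a clobetasol peak nor a repeat-like peak, the 5 with the highest summed −log10 q had 156 to 207 induced fragments in all. The median over all chains without a repeat-like peak was 209. The chain at chr6:37583129-37598406 had 60, 38, 32 and 33 fragments, and its first peak had a fold of 7.20. The control level at that peak was 13.5 proliferating fragments before scaling down to the induced depth. At chr1:994707-1004377 the middle peak held 76 fragments with a −log10 q of 29.8, between neighbours of 44 and 36 fragments. This middle peak is in a class of which 91.7% were shared. The chains at chr4:8276383-8286374 (62, 63 and 37 fragments), chr16:57126228-57134187 (73, 45 and 60) and chr19:3668136-3674188 (58, 44, 66 and 39) completed the set.

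Several larger chains held repeat-like peaks. Apart from the first described here, named for its number of peaks at any control level, they were singled out after their values were seen. Leaving aside repeat-like chains with folds under 2, there were 8 chains of 8 or more peaks, and 47 of their 71 peaks were shared (66.2%). The largest of them, chr3:50264747-50312072, had 10 peaks over 47.3 kb, with induced fragments from 38 to 141. Its 6 shared peaks had 75 or more induced fragments and the 4 lost peaks 58 or fewer, so the shared and lost peaks did not overlap in strength. The 6 ratios lay between 0.730 and 0.95. The chain at chr17:1928574-1985388 spread 9 peaks over 56.8 kb, the longest span among chains that were not wholly repeat-like. Its 3 repeat-like peaks held 260, 353 and 291 fragments, and the lost peaks held 35, 32 and 39.

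A 9-peak chain at chr19:13260445-13293041 held peaks of unlike ratios. Induced fragments were 125, 81, 79, 269, 69, 428, 60, 31 and 39. The sixth, chr19:13273799-13274239, was repeat-like and the strongest, with a fold of 7.95, 359 clobetasol fragments and a ratio of 0.690 (0.598 to 0.796). The fourth, chr19:13265115-13265370, was also repeat-like and had 367 clobetasol fragments and a ratio of 1.12 (0.957 to 1.32). The lowest ratio, 0.596 (0.406 to 0.871), was at the fifth, the neighbour of the fourth, and the eighth and ninth peaks were lost. A clobetasol peak with no induced counterpart lay in this chain as well, at chr19:13278227-13278691, with 53 fragments.

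On the same chromosome, chr19:12885505-12912828 also held 9 peaks. Its most abundant summit, 292 fragments, had a fold of only 1.81. The control level there was 291 proliferating fragments before it was scaled down to the induced depth. The 7 shared peaks had ratios from 0.700 to 0.958. At chr19:1235965-1276142, 5 of 9 peaks were repeat-like, all 5 were shared, and the 2 lost peaks had 49 and 53 fragments. Its 7 ratios lay between 0.654 and 0.846.

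Wide peaks were about as frequent in chains as elsewhere. Those of 1000 bp or more made up 9.06% of chained and 8.89% of isolated peaks, and the widest chained peak covered 3609 bp. Of the 190 wide chained peaks 80.0% were shared, against 59.6% of those under 500 bp. A wider peak is more easily overlapped by 1 bp, so the shares by width do not compare binding alone. At a −log10 q under 20 these shares were 61.8% (Wilson interval 51.4 to 71.2) and 42.1% (38.8 to 45.6). At 20 or more they were 96.0% and 92.4%. Isolated peaks under 20 gave 55.5% and 46.0%. At least 1 wide peak was present in 157 chains and 3 or more in 4.

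The chain with most wide peaks was chr22:33192872-33237619, with 6 among its 9 peaks, and it was also singled out after its values were seen. Its first 3 peaks had 137, 246 and 50 induced fragments and 119, 157 and 52 clobetasol fragments. The ratio at the second, a repeat-like peak, was 0.525 (0.427 to 0.644). The remaining 6, over the following part of the chain, had 32, 34, 32, 60, 34 and 56 induced fragments, and none was listed with clobetasol. A fold of 5.52 and one of 5.91 were among those lost, at chr22:33225502-33228060 and chr22:33236318-33237619. The third peak was 3403 bp wide, and its summit lay 650 bp from that of its clobetasol partner, so its ratio of 0.856 does not describe 1 position.

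The 16 chains whose extreme ratios lay apart were also chosen by these values. At chr5:137822761-137831403, the first peak had 378 induced and 458 clobetasol fragments, a ratio of 0.997 (0.868 to 1.15), and the second had 200 and 167, a ratio of 0.687 (0.556 to 0.848). The first was repeat-like and the second was not. At chr19:8428566-8432726, 187 induced and 287 clobetasol fragments gave 1.26 (1.05 to 1.53) at the first peak, and 62 and 49 gave 0.651 at the third. There too the first peak was repeat-like, and the third was not. At chr11:3173687-3191420, all 4 peaks were free of the repeat-like label, and their ratios were 0.885, 0.446, 0.770 and 0.982. The low value belonged to the strongest peak, with 107 induced and 58 clobetasol fragments.

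In 1 chain a high ratio came from the pairing of the lists. At chr16:56641076-56644530, a single clobetasol peak of 157 fragments overlapped both the second and the third induced peaks, of 46 and 107 fragments. Its summit lay 3 bp from the third and 2129 bp from the second. The ratio of 2.81 at the second therefore compares different positions, while the third gave 1.21 (0.939 to 1.56) and the first 0.841 (0.659 to 1.07). Such double overlap occurred for 2 clobetasol peaks and 4 chained peaks in all.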

How the data were processed

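EGR1 ChIP-seq libraries, 3 in each of 3 groups, were processed by the submitters on hg19. Per the submitters' processing notes the tools included MACS2 2.1.1.20160309, cutadapt 1.15, SAMtools 1.3.1, BWA, bcl2fastq and FastQC 0.11.5. Peak calling settings and library totals were not given in the sources used here. The authors named the peaks after replicates 1, 2 and 3 of the treated group pooled against the same replicates of proliferating EGR1 ChIP. The deposited fold is the authors' ratio of treated to control signal at the summit, and the deposited −log10 p and −log10 q belong to the same summit. In the deposited lists the score equalled 10 times −log10 q with the decimals dropped. A fold or q given for a peak is the authors'.

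The treated fragments and the control level at each summit were solved from the fold, taken as (treated + 1)/(control + 1), and the −log10 p, taken as a Poisson tail. Fragments came out within 0.05 of a whole number for 99.6% of induced and 99.5% of clobetasol peaks. The solution was limited to 20000 fragments, and the clobetasol partner of chr10:42385030-42385568 reached that limit. Its fragments may be too few, so its ratio, counted among those with an interval below 1, is not reliable. The solver, the joining and the intervals were tested on simulated data. The depth ratio of 1.21 is that of the steps on which control levels lie, 0.670 over 0.552. Where several clobetasol peaks overlapped a peak, the one of nearest summit was used, a choice made after seeing that the longest overlap paired some distant summits. Shares have 95% Wilson intervals and ratios exact binomial ones, for counting error only. Fragments amplified by PCR are not independent molecules. No test between groups was made, since each group is 1 pool.

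Named chains were, among those with no repeat-like peak, the 5 with most peaks, most fragments, closest spacing (4 or more peaks), no shared peak (highest summed −log10 q) and all peaks shared (most clobetasol fragments), plus the 3 of most peaks at any control level. Chains of 8 or more peaks, with 3 or more wide peaks or with extremes apart were added after their values were seen. The members and lists were chosen with earlier results of these data known. Planned lists of genes were not used, since no source used here placed them on hg19. The alternatives were other joining distances, a stricter q, other overlaps, repeat-like peaks left out, merged summits, the excess over control, another depth ratio and another partner peak. Python 3.11.15, numpy 2.4.6, scipy 1.17.1, pandas 2.3.3 and matplotlib 3.10.9 were used.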

Additional observations from a re-analysis of the deposited data

Results flagged for a closer look

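The rule covered chromosomes 1 to 22, and chains of 3 or more induced peaks were also present on chromosome X and on contigs. Chromosome Y is not described here. On chromosome X, 27 of 340 induced peaks fell in 7 chains, and 13 of the 27 had an overlapping clobetasol peak. On contigs outside the assembled chromosomes, 44 of 142 induced peaks fell in 5 chains, and 27 of the 44 were shared. The shares over all induced peaks of chromosome X and of the contigs were not computed, so these shared counts have no background to be judged by. The peaks entered none of the comparisons, and every listed peak lies above the proliferating control by the authors' calling.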

How the results depend on the processing

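Under the alternatives, 41 values were recomputed for 7 results. Of these values, 18 stayed within the interval of the reported value (or within 1.5 times a count) and 23 moved. For shares that interval covers counting error only. For the median ratio it is an interval of the median over peaks, taken as independent. A reversal of direction was defined for the median ratio alone, as crossing 1, and none occurred. The number of chains and chained peaks depended on the joining distance, with 320 chains (1077 peaks) at 5 kb and 966 (3873) at 20 kb, and on strength, with 267 (957) when a −log10 q of 10 was required, whether of induced peaks alone or of both lists. Leaving out repeat-like peaks before joining gave 359 chains (1260 peaks). The share of chained peaks with a clobetasol peak was 80.7% at the stricter q in the induced list alone and 64.6% with it in both lists. That share was 57.0% without repeat-like peaks and 56.7% for an overlap of 50% of the induced peak. It was 62.0% for summits within 100 bp and 56.4% in chains with no repeat-like peak. The median ratio was 0.785 at the stricter q in the induced list, 0.814 with it in both lists, 0.788 without repeat-like peaks, and 0.741 for the excess over the control level. The weakest peak of a chain was shared in 62.2% of chains at the stricter q and in 30.9% of chains with no repeat-like peak, and the strongest in 93.3% and 80.7%. The cause of these shifts was not tested beyond the smaller or different sets of peaks that each alternative leaves. The sets of chains with no repeat-like peak and of chains without the 2 of most peaks, the partner of longest overlap (4.27% of chains with extremes apart) and the depth ratio from the lowest control levels were chosen after seeing the data. No paired analysis was possible because the authors pooled the replicates, so no value per replicate was used here, and for the same reason no replicate could be left out. With a median of 69 fragments at a summit, the interval of a single ratio is wide, and a ratio near 1 at a weak peak does not show equal occupancy.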
